A study of Mus musculus with 8 samples.

Results

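The 9 Slc4a genes described here encode the members of the solute carrier 4 family, mostly bicarbonate transporters, other than the erythroid member. They were taken by gene symbol from a table of 54532 genes, and all 9 were found. Enamel organs of the first molars of untreated wt C57BL/6 mouse pups were profiled by RNA-seq at P5, the secretory stage, and at P12, the maturation stage. Each library was a pool of 5 pups and each age had 4 libraries (n = 4 pools), numbered 1, 3, 4 and 5 at P5 and 1, 2, 3 and 4 at P12. Both ages therefore shared strain, genotype and the absence of treatment, and they differed by age. The molars were homogenized after soft tissue had been taken out of the pulp chamber, so that the libraries are of a dissected tissue and not of sorted ameloblasts.

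Enamel turns acidic as its mineral grows, and bicarbonate from maturation ameloblasts is known to serve as a buffer. Carbonic anhydrases form bicarbonate inside the cell, sodium bicarbonate cotransporters bring it in across the basolateral membrane, and anion exchangers trade it for chloride. In the Slc4 family, Slc4a2 (AE2) and Slc4a3 (AE3) exchange chloride for bicarbonate, Slc4a4 (NBCe1) and Slc4a5 (NBCe2) are electrogenic sodium bicarbonate cotransporters, and Slc4a7 (NBCn1), Slc4a8 (NDCBE) and Slc4a10 (NBCn2) carry sodium and bicarbonate without net charge. Slc4a9 (AE4) is best known from kidney, and Slc4a11 resembles the others in sequence but is not thought to carry bicarbonate. Loss of SLC4A4 in patients is known to cause enamel defects.

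The total count per library lay 16574548 to 20262601 in P5 libraries and 17588152 to 22013456 in P12 libraries. The 20 most abundant genes of a library took 34.1% to 35.7% of its counts at P5 but 16.8% to 19.0% at P12, and the scaling of the libraries therefore bears on small changes. Normalized counts are counts divided by the library size after TMM scaling, a trimmed mean of ratios between libraries, and brought to a common library size. Summed secretory ameloblast markers (Amelx, Ambn, Enam and Mmp20) were 4967000 to 5580000 normalized counts in P5 libraries and 237000 to 621700 in P12 libraries, and 4 of 4 fell. Summed maturation markers (Klk4, Amtn, Odam, Slc24a4 and Wdr72) were 12880 to 44230 in P5 libraries and 357000 to 482600 in P12 libraries, and 5 of 5 rose. The tissue also held mesenchyme, with 6 of 6 markers detected and a sum between 866300 and 1220000, and no marker of the lists examined was at 0 in all libraries of an age. Of the P12 libraries, replicate 4 stood apart, with the highest secretory sum and an oral epithelium sum (Krt13, Krt4, Krt76, Krt6b and Sprr3) of 3360 against 20200 to 32250 in the others. The same library had 205967 normalized counts of CT010467.1, against 14990 to 37120 in the other P12 libraries and 25394 to 75048 at P5. For mt-Rnr2 it had 22192, against 5118 to 8443 in the other P12 libraries and 6522 to 8194 at P5. Gm23935 and Lars2 were also highest at P12 in this library, at 134309 and 61682. Both values lay within the P5 ranges, 54697 to 155700 and 24618 to 61999. The reason for these differences was not tested. At P5, replicate 5 had a maturation sum of 12880 against 36790 to 44230.

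Of the 8 Slc4a genes with enough counts to be tested, 5 were lower and 1 was higher at P12 at a threshold of 0.05 on the p-value of the edgeR quasi-likelihood test, adjusted by Benjamini and Hochberg's method for 16440 genes. SE is the standard error of a log2 fold change in this fit. Of all tested genes, 28.4% were lower and 28.8% were higher, 57.2% in either direction. Slc4a3, Slc4a7, Slc4a8, Slc4a9 and Slc4a10 fell and Slc4a11 rose, although the fall of Slc4a7 was lost when libraries were scaled by total count. Slc4a4 and Slc4a2, by far the most abundant members at both ages, did not pass the test. The median log2 fold change was -0.81 over the 8 genes and 0.01 over all genes tested. For 5 of the 8 genes the TMM-scaled counts of the ages did not overlap, all of them lower at P12. Among all tested genes 52.5% had no overlap, 26.6% lower and 26.0% higher. By DESeq2 as well, 6 of these 8 were called, 5 lower and 1 higher. Of 24238 genes in that fit, 40.8% were called, 20.4% in each direction. That set holds genes too low in counts for the 16440, so that its share is not a like comparison for these 8. In such whole-tissue libraries, fewer cells of a type and less RNA per cell cannot be told apart.

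**Figure D1:**
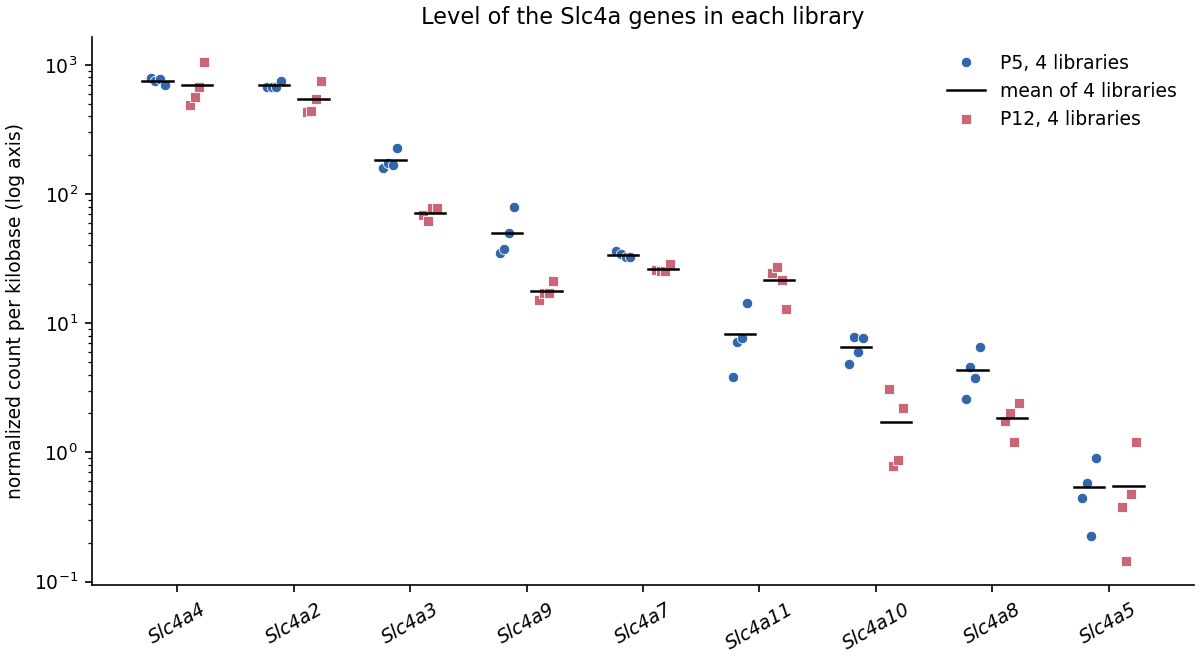
Normalized count per kilobase of gene length (log axis) of the 9 Slc4a genes in each of the 4 P5 (circles) and 4 P12 (squares) libraries, ordered by the mean at P5, with a bar at the mean of each age. Slc4a4 and Slc4a2 lie above the other members in all 8 libraries, and Slc4a3, Slc4a7, Slc4a8, Slc4a9 and Slc4a10 show no overlap between the ages under TMM scaling.

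Levels between genes were compared per kilobase of the gene length in the deposited table. At P5 the order was Slc4a4 at 753 ± 42.3 normalized counts per kilobase (SD, n = 4 pools), Slc4a2 at 692 ± 36.4, Slc4a3 at 182 ± 31.6, Slc4a9 at 50.3 ± 20.1, Slc4a7 at 33.8 ± 1.73, Slc4a11 at 8.27 ± 4.42, Slc4a10 at 6.58 ± 1.47, Slc4a8 at 4.36 ± 1.69 and Slc4a5 at 0.54 ± 0.287. The ranges over libraries overlapped between Slc4a4 and Slc4a2, between Slc4a9 and Slc4a7, and along the run from Slc4a11 through Slc4a10 to Slc4a8. Clear steps separated Slc4a2 from Slc4a3, at 3.79-fold, Slc4a3 from Slc4a9, at 3.63-fold, and Slc4a7 from Slc4a11, at 4.08-fold. The place of Slc4a9 is uncertain, because its deposited length of 2930 bases is shorter than the 6403 exonic bases that GENCODE M21 gives, and with the longer value it changes places with Slc4a7 at P5.

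At P12 the order was Slc4a4 at 697 ± 253 normalized counts per kilobase (SD, n = 4 pools), Slc4a2 at 540 ± 146, Slc4a3 at 71.6 ± 7.86, Slc4a7 at 26.3 ± 1.60, Slc4a11 at 21.6 ± 6.25, Slc4a9 at 17.7 ± 2.60, Slc4a8 at 1.84 ± 0.496, Slc4a10 at 1.73 ± 1.11 and Slc4a5 at 0.55 ± 0.460. Slc4a11 had moved from place 6 to place 5 and Slc4a9 from place 4 to place 6, but the ranges of neighbours overlapped from Slc4a7 to Slc4a9 and from Slc4a8 to Slc4a5. With the GENCODE M21 length Slc4a9 moved from place 5 to place 6. The P12 level of Slc4a9 and its overlap with neighbours rest on the deposited length. The step from Slc4a2 to Slc4a3 had widened to 7.54-fold. Summed over the 9 genes, the level per kilobase was 1732 ± 54.1 at P5 and 1378 ± 403 at P12, and the wide spread at P12 came with Slc4a4 and Slc4a2.

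Slc4a4 (ENSMUSG00000060961) spans bases 88886818 to 89239653 of chromosome 5 (GRCm38, forward strand) and shares 0.0% of its exonic bases with other genes. Its normalized count was 8585, 8125, 8353 and 7521 in P5 replicates 1, 3, 4 and 5 and 5316, 6065, 7307 and 11447 in P12 replicates 1 to 4. Thus 3 of the 4 P12 libraries were below all P5 libraries, while replicate 4 was above all of them. The log2 fold change was -0.11 (SE 0.19, edgeR adjusted p = 0.64; exact permutation test over the 70 splits, two-sided p = 0.429), so that no difference was shown. Without P12 replicate 4 it was -0.39 (adjusted p = 0.0033), and without both that library and P5 replicate 5 it was -0.43 (adjusted p = 0.0011). Leaving out the only P12 library above the P5 libraries separates the ages by choice. Both values are therefore a description and not further support. Total count scaling turned the direction, at 0.25 (adjusted p = 0.23). Ordered from high to low, the libraries stood in the same order for Slc4a4 as for the summed maturation ameloblast markers, which was 1, 4, 3 and 5 at P5 and 4, 3, 2 and 1 at P12. Secretory ameloblast and neuron sums had that P12 order too, and the macrophage sum had that P5 order. Whether the ameloblast content of the pools had a part in the spread of Slc4a4 was not tested.

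Slc4a2 (ENSMUSG00000028962), also on chromosome 5 (24423837 to 24440950, forward strand), encodes an exchanger that ameloblasts and osteoclasts are known to use. Its normalized count was 5615, 5617, 5604 and 6217 in P5 replicates 1, 3, 4 and 5 and 3584, 3677, 4503.5 and 6209 in P12 replicates 1 to 4. The P5 libraries were close to each other, 3 P12 libraries were below them, and P12 replicate 4 fell among them. The log2 fold change was -0.36 (SE 0.15, edgeR adjusted p = 0.061; exact permutation test, two-sided p = 0.114). Without P12 replicate 4 it was -0.56 (adjusted p = 7.3e-05), and with total count scaling it was 0.00 (adjusted p = 0.99). P12 replicate 4 was the only P12 library within the P5 range, so that leaving it out separates the ages by choice. The value without it is a description and not further support.

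Of 8 osteoclast markers, 7 were tested and all 7 were higher at P12, as were 28.8% of all tested genes, while Slc4a2 showed no called change. The remaining marker, Calcr, was too low to be tested, with a mean of 11.1 normalized counts at P5 and 4.48 at P12. The sum of the 8 markers was 1433 to 2445 normalized counts in P5 libraries and 4477 to 11030 in P12 libraries. P12 replicate 4, the highest P12 library for Slc4a2, had the lowest osteoclast sum of that age. The part of osteoclasts in the Slc4a2 count was not tested. Of the exonic bases of Slc4a2, 13.7% lie in exons of genes on the opposite strand, chiefly Fastk. Fastk itself was 1901 to 2267 normalized counts in P5 libraries and 1336 to 1453 in P12 libraries, and since the use of strand in the counting is not given in the sources used here, reads of the shared part cannot be told apart.

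The ratio of Slc4a4 to Slc4a2 within a library does not depend on how libraries are scaled. It was 1.53, 1.45, 1.49 and 1.21 in P5 replicates 1, 3, 4 and 5 and 1.48, 1.65, 1.62 and 1.84 in P12 replicates 1 to 4, as the ratio of their counts. The ages overlapped, since P12 replicate 1 was below P5 replicates 1 and 4. On the log2 scale with a pseudocount of 1 the ratio went from 0.50 ± 0.15 to 0.72 ± 0.13 (SD, n = 4 each), a difference of 0.22 (exact permutation test, two-sided p = 0.0857, where 4 libraries against 4 cannot go below 0.0286). Leaving out each library in turn gave differences from 0.14 to 0.27, with p from 0.0286 to 0.2 in the same exact test. The difference passed 0.05 in 1 of these 8 cases, without P12 replicate 1 (0.27), and it was 0.14 (exact p = 0.143) without P5 replicate 5 and 0.16 (exact p = 0.2) without P12 replicate 4.

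As a share of the summed level per kilobase of the 9 genes, Slc4a2 was nearly constant, 39.3% to 41.2% in P5 libraries and 38.2% to 40.6% in P12 libraries. Slc4a4 took 38.4% to 46.5% in P5 libraries and 46.3% to 54.3% in P12 libraries, so that only P12 replicate 1 fell within the P5 range. Slc4a3 went from between 9.23% and 12.6% to between 3.99% and 6.51%, with no overlap. The other 6 genes together held the small remainder. Among them, Slc4a11 was 0.226% to 0.795% in P5 libraries and 0.659% to 2.40% in P12 libraries.

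**Figure D2:**
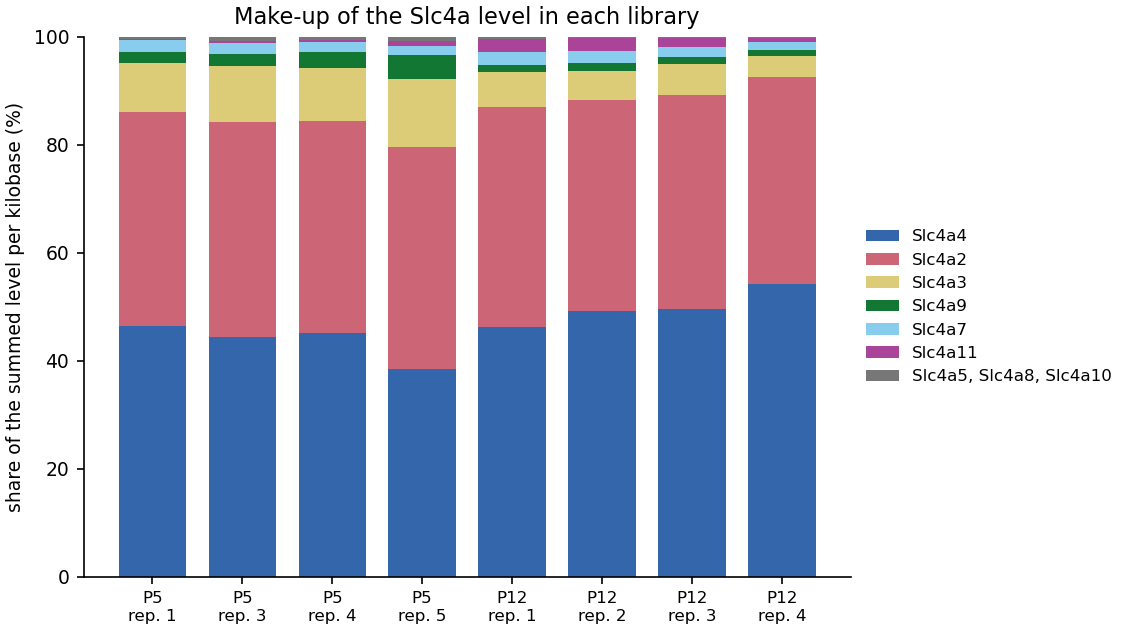
Share (%) of each Slc4a gene in the summed normalized count per kilobase of the 9 genes, 1 stacked bar for each of the 4 P5 and 4 P12 libraries. Slc4a2 keeps a share between 38.2% and 41.2% in all 8 libraries, and Slc4a3 is smaller in every P12 library than in every P5 library.

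Slc4a3 (ENSMUSG00000006576, chromosome 1, 75546266 to 75562172, forward strand), the AE3 exchanger known from heart, brain and retina, had the best supported fall. Its normalized count was 1356, 1505, 1451 and 1967 in P5 replicates 1, 3, 4 and 5 and 595, 529, 670 and 669 in P12 replicates 1 to 4. Every P12 library was below every P5 library, and the mean went from 1570 ± 272 (SD, n = 4) to 616 ± 67.6 (SD, n = 4). The log2 fold change was -1.35 (SE 0.12, edgeR adjusted p = 2.9e-06), 2.55-fold lower. Over the 18 alternative fits it lay between -1.42 and -0.98, with an adjusted p of at most 2.6e-05. Skeletal muscle markers also fell, 4 of 5, with a sum 604 to 1093 normalized counts in P5 libraries and 367 to 435 in P12 libraries, but P5 replicate 5, the highest library for Slc4a3, had the lowest P5 muscle sum. Neuron markers fell too, 3 of 5, with a sum of 957 to 1636 normalized counts in P5 libraries and 586.5 to 747 in P12 libraries. P5 replicates 5 and 3, the highest for Slc4a3, had the highest P5 neuron sums, 1559 and 1636. At P12 the order was 3, 4, 1 and 2 for Slc4a3 and 4, 3, 2 and 1 for the neuron sum. The part of muscle or of nerve tissue in Slc4a3 was not tested.

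The members that carry sodium and bicarbonate without net charge fell by unequal amounts. Slc4a7 (ENSMUSG00000021733, chromosome 14, 14702279 to 14799940, forward strand) was at 549, 518, 492 and 495 normalized counts in P5 replicates 1, 3, 4 and 5 and at 390, 388, 386 and 437 in P12 replicates 1 to 4. The gap between the ages was small but clear of the spread, with a log2 fold change of -0.36 (SE 0.07, edgeR adjusted p = 0.0015), 1.28-fold lower. Its direction rested on the scaling, as total count alone gave 0.01 (adjusted p = 0.89).

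Slc4a8 (ENSMUSG00000023032, chromosome 15, 100761747 to 100823968, forward strand) was at 33.4, 59.3, 48.8 and 85.7 normalized counts in P5 replicates 1, 3, 4 and 5 and at 22.7, 26.2, 15.8 and 31.1 in P12 replicates 1 to 4. Under TMM scaling all P12 libraries were below the lowest P5 library, by little in the case of P12 replicate 4. In reads, P5 replicate 1 had 26 and P12 replicates 1, 2 and 4 had 31 each, so that the lack of overlap rested on the scaling. The log2 fold change was -1.25 (SE 0.32, edgeR adjusted p = 0.0054). Slc4a10 (ENSMUSG00000026904, chromosome 2, 62046462 to 62326730, forward strand) was at 30.9, 50.3, 38.2 and 49.7 at P5 and at 19.8, 5.06, 5.56 and 14.1 at P12, also without overlap. In reads, P5 replicate 1 had 24 and P12 replicate 1 had 27, so that the ages overlapped before scaling. The Slc4a10 log2 fold change of -1.90 (SE 0.40, edgeR adjusted p = 0.0019) rests on between 6 and 27 reads in a P12 library.

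Slc4a8 and Slc4a10 are known mainly from neurons, and neuron markers fell as well, 3 of 5 (Rbfox3, Syt1 and Elavl4). The neuron sum was 957 to 1636 normalized counts in P5 libraries and 586.5 to 747 in P12 libraries. At P5 the libraries with the highest Slc4a8 and Slc4a10 counts, replicates 5 and 3, also had the highest neuron sums, 1559 and 1636. At P12 the orders matched only in part. Slc4a8 and the neuron sum were both highest in replicate 4, at 31.1 and 747. Slc4a8 was lowest in replicate 3, however, where the neuron sum was next to the highest (726.5). Slc4a10 was highest in replicate 1, which had the lowest neuron sum (586.5). The part of nerve tissue in these falls was not tested.

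Slc4a9 (ENSMUSG00000024485, chromosome 18, 36528157 to 36541293 in the deposited table, forward strand) was at 102, 111, 146 and 231 normalized counts in P5 replicates 1, 3, 4 and 5 and at 44.0, 50.6, 50.0 and 62.2 in P12 replicates 1 to 4. Every P12 library was below every P5 library. The log2 fold change was -1.52 (SE 0.26, edgeR adjusted p = 4.4e-04), 2.86-fold lower. P5 replicate 5 was the highest, and without it the value was -1.22, still past the threshold.

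Slc4a11 (ENSMUSG00000074796, chromosome 2, 130684113 to 130697519, reverse strand), known from the corneal endothelium, was the only member that rose. Its normalized count was 19.3, 35.8, 38.2 and 72.0 in P5 replicates 1, 3, 4 and 5 and 122, 137, 108 and 64.3 in P12 replicates 1 to 4. The ages overlapped through 1 library each, since P5 replicate 5 was above P12 replicate 4. The log2 fold change was 1.37 (SE 0.35, edgeR adjusted p = 0.0056; exact permutation test, two-sided p = 0.0571). Without those 2 libraries it was 1.97. Leaving out the libraries that overlapped separates the ages by choice, so that this value is a description and not further support.

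At P12 the libraries stood, from high to low, in the order 2, 1, 3 and 4 for Slc4a11, for the summed oral epithelium markers, for the osteoclast sum and for the macrophage sum alike. Oral epithelium markers were higher at P12 in 5 of 5 cases, with a sum between 483 and 906 normalized counts at P5. At P5 the order for Slc4a11, 5, 4, 3 and 1, was the reverse of that for oral epithelium and differed from those for osteoclasts (4, 1, 5 and 3) and macrophages (1, 4, 3 and 5). The part of these tissues in the rise was not tested.

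Slc4a5 (ENSMUSG00000068323, chromosome 6, 83219828 to 83304945, forward strand), known from choroid plexus, did not pass the filter on low counts. It had 2, 3, 1 and 5 reads in P5 replicates 1, 3, 4 and 5 and 3, 1, 3 and 7 in P12 replicates 1 to 4. These counts are near the floor of 3 counts, and a change was not detectable at this depth.

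**Figure D3:**
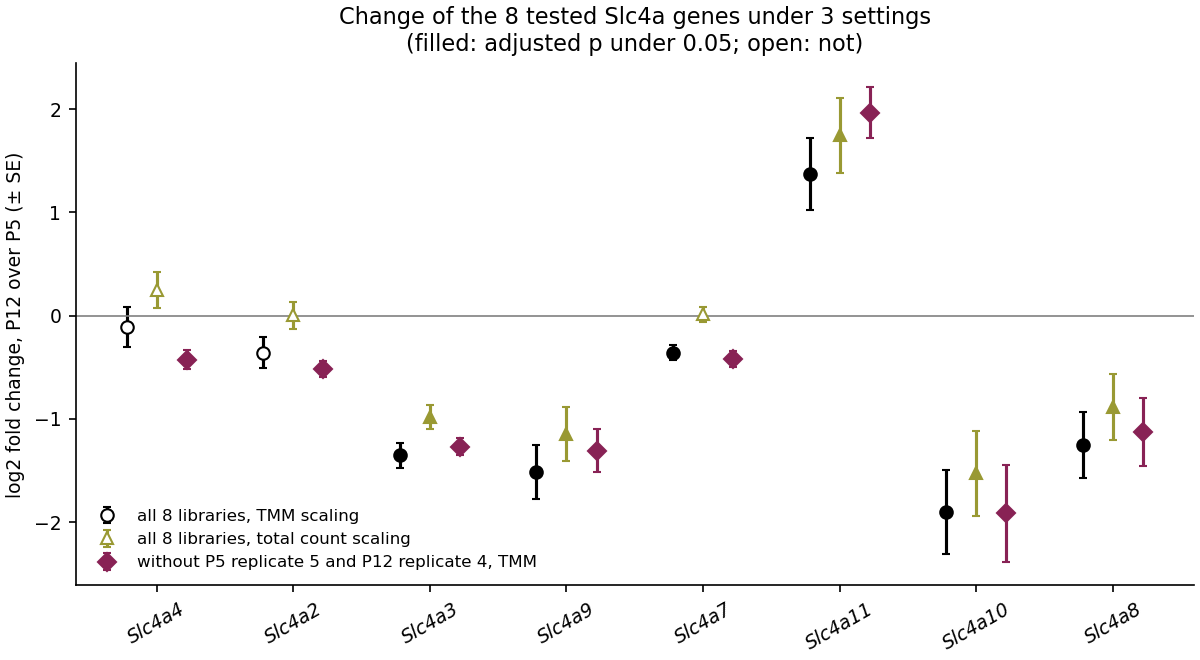
Log2 fold change, P12 over P5 (± SE from the edgeR fit), of the 8 tested Slc4a genes with all libraries and TMM scaling (circles), with total count scaling (triangles) and without P5 replicate 5 and P12 replicate 4 (diamonds), filled where the adjusted p is under 0.05. Total count scaling moves Slc4a4 to 0.25, Slc4a2 to 0.00 and Slc4a7 to 0.01, and without the 2 libraries Slc4a4 and Slc4a2 are at -0.43 and -0.52.

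Scaling moved all members alike. Total count scaling called 8885 of all genes higher (54.0%) and 2330 lower (14.2%), 68.2% in all, against 4735 and 4676 with TMM. The median over all genes became 0.38 on the log2 scale. Relative to that median Slc4a4 was at -0.13, Slc4a2 at -0.38, Slc4a7 at -0.37, Slc4a3 at -1.36 and Slc4a11 at 1.37. Under this scaling 4 members stayed lower (Slc4a3, Slc4a8, Slc4a9 and Slc4a10) and Slc4a11 stayed higher. Without P5 replicate 5 and P12 replicate 4, 7 of the 8 tested members were lower and 1 was higher, where 29.1% and 29.5% of all tested genes were, 58.7% in all. For Slc4a4, Slc4a2 and Slc4a11 this choice of libraries removed the overlap between the ages, so that the count is a description. Of the 8 tested members, 5 were highest at P12 in replicate 4 and 5 were highest at P5 in replicate 5, against 33.4% and 31.8% of all tested genes.

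**Figure D4:**
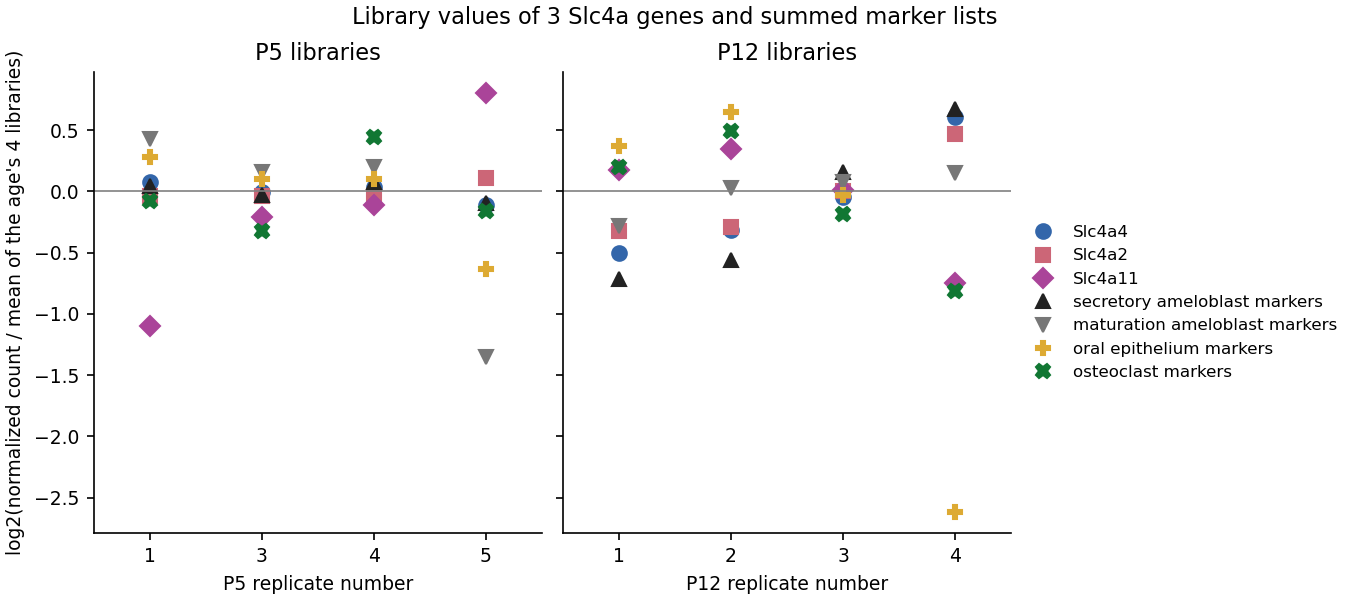
Log2 of the normalized count over the mean of the 4 libraries of the same age, for Slc4a4, Slc4a2, Slc4a11 and 4 summed marker lists, by replicate number at P5 (left) and P12 (right). In P12 replicate 4, Slc4a4, Slc4a2 and the ameloblast markers lie above the mean of the age, and Slc4a11, the oral epithelium markers and the osteoclast markers lie below it.

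The sequence before the start of a transcript was available for 7 of the 9 members, in 10 windows from RefSeq (build GRCm38.p6), of which the 250 bases upstream of the start were used. Of these, 4 windows are shown, for the most abundant members and for members that fell, among those free of annotated exons. Slc4a4 has a start near the beginning of the gene and another far inside it, and the counts pool both starts. The window of the outer start lies wholly in annotated exons, so that only that of the inner start (chr5:89027716-89027965) is shown. The windows of Slc4a2 (chr5:24424982-24425231) and Slc4a7 (chr14:14718534-14718783) also lie within the gene as the table bounds it, while that of Slc4a8 (chr15:100761497-100761746) lies before it. All are on the forward strand, and capitals mark ATTGG, the reverse complement of the CCAAT element, and the TATA element TATAAA.
Slc4a4: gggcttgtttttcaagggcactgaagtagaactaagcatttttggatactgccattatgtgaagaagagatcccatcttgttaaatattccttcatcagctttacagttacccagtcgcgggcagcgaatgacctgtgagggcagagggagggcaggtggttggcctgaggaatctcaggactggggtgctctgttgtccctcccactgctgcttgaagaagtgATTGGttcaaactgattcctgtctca
Slc4a7: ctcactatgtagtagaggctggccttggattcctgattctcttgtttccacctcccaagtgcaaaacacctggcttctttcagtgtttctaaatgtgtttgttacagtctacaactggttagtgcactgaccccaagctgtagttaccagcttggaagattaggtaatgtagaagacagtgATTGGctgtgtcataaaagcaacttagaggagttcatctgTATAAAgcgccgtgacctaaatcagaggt
Slc4a8: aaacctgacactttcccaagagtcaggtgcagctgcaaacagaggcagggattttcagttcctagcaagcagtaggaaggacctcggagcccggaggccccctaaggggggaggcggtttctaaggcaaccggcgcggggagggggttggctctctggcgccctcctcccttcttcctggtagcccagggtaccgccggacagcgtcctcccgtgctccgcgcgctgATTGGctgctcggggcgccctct
Slc4a2: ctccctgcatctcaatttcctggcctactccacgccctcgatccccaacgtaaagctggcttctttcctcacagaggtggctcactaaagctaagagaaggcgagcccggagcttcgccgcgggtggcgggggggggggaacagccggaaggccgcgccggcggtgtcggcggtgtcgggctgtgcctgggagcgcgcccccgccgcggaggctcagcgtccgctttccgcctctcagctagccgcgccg

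On both strands of the 10 windows, 7 elements were searched. CCAAT was in 4 windows (1 each of Slc4a4, Slc4a7, Slc4a8 and Slc4a10), where 33.8% of all 32851 RefSeq windows of this length held it. TATAAA was in 3 windows (12.4% of all) and GGGCGG in 3 (32.7% of all). TGANTCA was in 1 (6.75% of all), and TGTGGT (14.0% of all), TAATTG (7.17%) and CACGTG (6.02%) were in 0. No searched element was in either window of Slc4a2. The shown window of Slc4a4 had 48.8% G and C and that of Slc4a2 69.2%, against a median of 52.4% over all windows. Such matches describe these letters in these windows and not a bound factor.

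Around the Slc4a genes, the enzymes that make bicarbonate were called in both directions, as were all genes (28.8% higher and 28.4% lower). Of 16 carbonic anhydrase genes, 13 were tested, 3 were higher, 3 were lower and 7 were not called at P12, and the median log2 fold change was -0.23. Car2, the main cytosolic enzyme, rose from 2039 ± 485 to 4167 ± 180 normalized counts (SD, n = 4 each), by 1.03 on the log2 scale (SE 0.15, edgeR adjusted p = 1.2e-04). Car13, also cytosolic, rose from 1319 ± 45.9 to 2038 ± 163, by 0.63 (edgeR adjusted p = 1.4e-05). Car5b, a mitochondrial enzyme named after its values were seen because its mean was under 100, rose from 18.2 ± 5.49 to 153 ± 26.8, by 3.07. The 3 that fell, also named after their values were seen, were Car9, Car10 and Car11, each with a mean under 100. With total count scaling Car9 alone was lower, without P12 replicate 1 there was 1 lower, and without P5 replicate 5 and P12 replicate 4 there were 5 lower.

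Of 8 genes listed as regulators of bicarbonate transporters, 7 were tested, 5 were higher and 0 were lower at P12 (median log2 fold change 0.54), beside 28.8% higher and 28.4% lower of all tested genes (median 0.01). The largest change was that of Stk39, the kinase SPAK, which rose from 245 ± 34.0 normalized counts (SD, n = 4) to 1033 ± 83.5 (SD, n = 4), by 2.08 on the log2 scale (edgeR adjusted p = 3.6e-08). Ahcyl1, which encodes the Slc4a4 activator IRBIT, rose by 0.54 and its relative Ahcyl2 by 0.65, the scaffold gene Slc9a3r1 by 0.82 and the kinase gene Wnk1 by 0.26, with adjusted p between 1.7e-04 and 0.0026. Ahcyl1 went from 6232 ± 110 to 9074 ± 1350, of the same order as the count of Slc4a4 itself. Adcy10, a bicarbonate sensor, had at most 10 reads in a library. Of Cftr and 6 Slc26 exchanger genes, 5 were tested, of which Cftr (log2 fold change 2.39), Slc26a1 (1.87) and Slc26a7 (1.77) rose and Slc26a6 (-0.32) fell, the last changing sign to 0.06 with total count scaling.

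**Figure D5:**
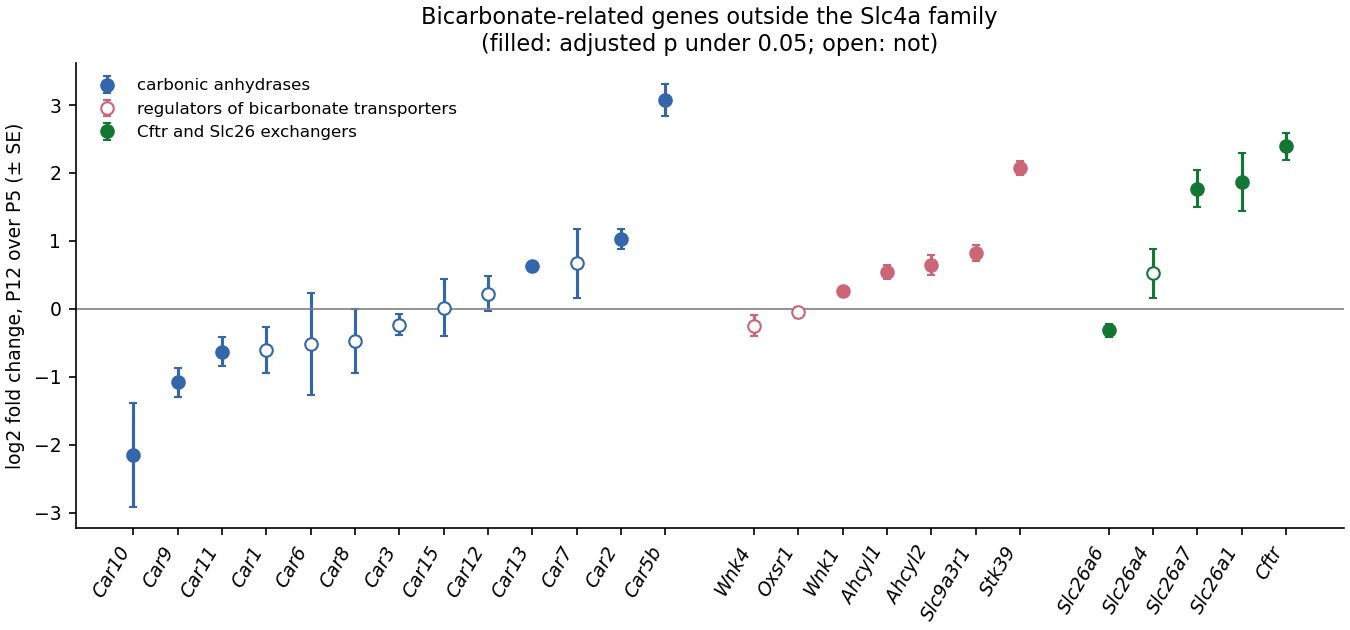
Log2 fold change, P12 over P5 (± SE from the edgeR fit, TMM scaling), of the tested carbonic anhydrase genes, regulators of bicarbonate transporters, and Cftr and Slc26 exchanger genes, filled where the adjusted p is under 0.05. Car5b is the highest carbonic anhydrase at 3.07, Stk39 the highest regulator at 2.08 and Cftr the highest of its group at 2.39, while the small fall of Slc26a6 changes sign under total count scaling.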

How the data were processed

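The deposited table holds read counts, whole and not normalized, for the genes of 8 libraries of polyA-captured RNA, beside gene coordinates and lengths. The aligner, counting program and use of strand are not given in the sources used here. The submitters' processing notes name CASAVA and the build mm39, whereas the coordinates of the table are those of GRCm38: 8 of the 9 Slc4a genes have the same coordinates and length in GENCODE M21. The study tested such counts with DESeq2.

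Counts were fitted with edgeR 4.0.16 in R 4.3.3 (quasi-likelihood test on age alone after filterByExpr and TMM), and p-values were adjusted by Benjamini-Hochberg for 16440 genes and a threshold of 0.05. Normalized counts were scaled to the mean effective library size, 19006280. Alternatives were DESeq2 1.42.0, limma-voom (limma 3.58.1), other scalings and filters, libraries left out and the replicate number as a block. No 2 libraries of an age were alike within counting noise, as chi-square over its degrees of freedom was at least 4.76 in the 12 pairs. Libraries are separate pools, and floors cover counting error only. Single values were tested by exact permutation, two-sided, over all 70 assignments of age, with a pseudocount of 1. Tests were tried on simulated counts first. The members, gene lists and tests were chosen with earlier results of these data known. All 9 members are named, as are list genes past the threshold with a mean normalized count of at least 100 (at most 5 per list, by size of change). The GENCODE lengths were added after the data were examined. Summaries used Python 3.11.15, scipy 1.17.1, pandas 2.3.3 and matplotlib 3.10.9.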

Additional observations from a re-analysis of the deposited data

Results flagged for a closer look

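Of the 16 combinations of a tested Slc4a gene and an age, 2 had 1 library far from the other 3, where about 5% of such groups, or 0.8, are expected by chance. Slc4a2 was at 6217 normalized counts in P5 replicate 5, against 5604 to 5617 in the other P5 libraries. Slc4a7 was at 437 in P12 replicate 4, against 386 to 390 in the other P12 libraries, and without that library its log2 fold change was -0.41.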

How the results depend on the processing

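Of the 8 log2 fold changes, those of Slc4a3, Slc4a9, Slc4a10 and Slc4a11 kept direction and call in every alternative fit, 17 for Slc4a10, which did not reach 10 counts in every library, and 18 for the others. Total count scaling gave 0.25 for Slc4a4, 0.0022 for Slc4a2 and 0.0122 for Slc4a7, and it called 8885 genes higher, 2330 lower and 1 carbonic anhydrase lower. It leaves the counts of the abundant P5 genes in the library size. Slc4a2 passed the threshold with limma-voom (-0.39, adjusted p = 0.039), with no filter on low counts (-0.34, adjusted p = 0.023) and without P12 replicate 4. Without P5 replicate 5 and P12 replicate 4, Slc4a2 was at -0.52, Slc4a4 at -0.43 and 5 carbonic anhydrases were lower. For Slc4a2 and Slc4a4, leaving out P12 replicate 4 separated the ages by choice. A further limit of 1 on the size of the log2 fold change left 1864 genes higher and 1677 lower, and an adjusted p under 0.01 left 1 carbonic anhydrase lower. The causes of these differences between fits, that of total count scaling included, were not tested.

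Without each library in turn, the log2 fold change lay between -0.39 and 0.0162 for Slc4a4 (highest without P12 replicate 1), -0.56 and -0.27 for Slc4a2, -1.42 and -1.23 for Slc4a3, -0.41 and -0.33 for Slc4a7, -1.44 and -0.99 for Slc4a8, -1.66 and -1.22 for Slc4a9, -2.38 and -1.65 for Slc4a10 and 1.14 and 1.78 for Slc4a11. The difference in the log2 ratio of Slc4a4 to Slc4a2 lay between 0.14 and 0.27, the number of members lower between 5 and 7 and higher at 1, carbonic anhydrases lower between 1 and 3, and all genes between 4309 and 4938 higher and between 4364 and 5092 lower. DESeq2 called 4951 genes higher and 4949 lower.

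Replicates 1, 3 and 4 occur at both ages. Deviations of same-numbered libraries from their age mean had correlations between -0.036 and 0.045, within the range over all pairs (-0.068 to 0.062). The labels do not say whether such libraries share more than a number, and 3 pairs cannot settle it. With the replicate number as a block over these 6 libraries, Slc4a8 was at -1.02 with an adjusted p of 0.054, against 0.034 in the same 6 libraries without the block, and 3867 genes were higher and 3843 lower, against 4076 and 4041. Depth limits Slc4a5, Slc4a8 and Slc4a10, which had under 100 reads in every library.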

Other observations

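Among 11345 genes with a mean normalized count of at least 100, the genes whose log2 values over the 8 libraries, each centred on its mean, differed least from those of Slc4a4 were Runx1, Trp63 and Ssfa2, with root-mean-square differences of 0.07 on the log2 scale. For Slc4a2 they were Ehbp1 (0.07), Dlg2 (0.08) and Got1 (0.09). These 8 libraries are shared by all genes compared, and the distances are a description.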
